A study of Mus musculus with 9 samples.

Results

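The genes whose symbols begin with Eif and a digit encode the factors that start protein synthesis, their regulators and a few later-acting proteins. They were chosen by symbol in the deposited table of gene features, with 1 pseudogene cluster left out and 1 transcript cluster kept per symbol. This gave 54 genes of the 30860 genes measured, and each had a single cluster. RNA came from fully differentiated C57BL/6 mouse brown fat cells treated in culture for 8 h with 10 µM AM73, 10 µM AM80 or the solvent DMSO as the control. The series title presents the compounds as activators of PGC-1α1, the product of Ppargc1a. Each group holds 3 Affymetrix whole-transcript arrays, 9 in all. The labels give no genotype beyond the strain and call the replicates technical, so the 3 arrays of a group may come from 1 culture, and the p-values measure only the spread between arrays. With so few arrays, precision is limited by their number. All values are log2 levels made by the authors with RMA, and differences are log2 differences from a limma fit over all genes and all 9 arrays.

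In translation initiation, eIF2 carries the initiator tRNA to the small ribosomal subunit, eIF3 holds the scanning complex together, and eIF4F binds the mRNA cap and unwinds the leader. Kinases that phosphorylate the alpha subunit of eIF2 lower initiation under stress, because phosphorylated eIF2 blocks its exchange factor eIF2B. The kinase mTOR raises cap-dependent initiation by releasing eIF4E from its binding proteins. Brown fat cells burn lipid for heat through the uncoupling protein Ucp1. In mice that lack Eif4ebp1, a binding protein of eIF4E, white fat takes on features of brown fat.

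Many mRNAs of the translation machinery begin with a C and a run of pyrimidines, the terminal oligopyrimidine (TOP) run through which mTOR controls their translation. The start-site windows below were read from RefSeq's promoter table (GRCm38.p6), 30 bases before and 20 bases from the annotated first base. A run at the start was taken as C at the first base followed by at least 4 letters that are C or T, read on the gene's strand. The first 3 sequences are the Eif genes with such a run, in capitals, and the next 3 are genes with large changes that have none.
Eif3f (chr7:108934385-108934434, plus strand): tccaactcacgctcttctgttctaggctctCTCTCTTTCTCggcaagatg
Eif2s3x (chrX:94212632-94212681, minus strand): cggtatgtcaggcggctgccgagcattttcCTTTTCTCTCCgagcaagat
Eif2c5 (chrX:140776169-140776218, plus strand): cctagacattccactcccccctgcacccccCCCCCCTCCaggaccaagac
Eif3a (chr19:60790674-60790723, minus strand): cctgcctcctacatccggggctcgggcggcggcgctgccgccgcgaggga
Eif2a (chr3:58525791-58525840, plus strand): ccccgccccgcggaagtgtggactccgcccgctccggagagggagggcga
Eif5 (chr12:111538071-111538120, plus strand): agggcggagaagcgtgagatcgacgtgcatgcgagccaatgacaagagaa
Of the 54 genes, 42 had an entry in that table. A run at the annotated start was present in 3 of the 42 (7.14%), against 3.01% of all 27025 genes of the table. The genes that hold it did not move alike with AM80: Eif3f rose, Eif2s3x fell and Eif2c5 was not called, as described below. Little can be read from this, as the Eif2s3x cluster lies outside the RefSeq gene shown and Eif2c5 lay near background. Annotated starts can lie some bases from the start used in these cells. With the run allowed to begin within 10 bases of the annotated start, 17 of 42 (40.5%) and 34.4% of all genes held one.

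The AM80 arrays lay away from the rest in overall profile, and DMSO replicate 3 lay between. On the first principal component of all genes (58.7% of the variance) the AM80 arrays lay at 31.2 to 74.7, DMSO replicate 3 at 2.51 and the other 5 arrays at −41.6 to −22.6. Poly-A control RNAs, spiked in ahead of labelling, had medians of 5.2 to 5.85 with AM80, 4.51 to 4.83 with DMSO and 4.08 to 4.68 with AM73. Scaling each array to these controls lowers every AM80 minus DMSO difference by 0.84, and it moved the median AM80 minus DMSO difference of all genes from 0.04 to −0.80. Every rise and fall given here is therefore read against most genes of its own array. Brown adipocyte markers averaged 7.37 to 7.46 with DMSO, 7.77 to 7.82 with AM73 and 7.42 to 7.54 with AM80. Within that list Ucp1 rose with both compounds (2.16 with AM73 and 1.93 with AM80, adjusted p = 0.0256 and 0.0032), while Ppargc1a and Pparg fell with AM80 (−1.66 and −0.91, adjusted p = 0.00237 and 0.00497). The means of 5 macrophage and 5 endothelial markers lay between 2.35 and 2.81 on every array, where the background probes had medians of 2.07 to 2.32. The macrophage marker Cd68 lay higher, with group means of 4.05 to 4.44. Preadipocyte and fibroblast markers averaged 3.33 to 3.56. Among them Pdgfra and Pdgfrb had group means of 4.66 to 4.80, and Dlk1, Cd34 and Thy1 of 2.42 to 2.79. Skeletal muscle markers averaged higher with AM80 (3.66 to 3.93, against 3.24 to 3.41 with DMSO), and 2 of 5 passed, Acta1 (0.90) and Mb (0.76). Under the poly-A scaling these 2 differences were 0.06 and −0.08. Mb was also higher with AM73 without passing (0.83, limma adjusted p = 0.312). Myog had an AM80 difference of 0.37 (adjusted p = 0.604), and the defining muscle genes Ckm and Myh4 lay near background. Their part in the results was not tested. In such bulk samples fewer cells of a type and less RNA per cell cannot be told apart.

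AM80 changed initiation factor genes in both directions, and 29 of the 54 passed in neither. Of the 54, 15 fell, by 0.70 to 2.0, and 10 rose, by 0.50 to 0.77 (all 10 below DMSO under the poly-A scaling), at a limma adjusted p under 0.05 (Benjamini-Hochberg over all genes). The falls lie in the initiator tRNA carriers (Eif2a, Eif2s1, Eif2s2, Eif2s3x and Eif2s3y), the kinase gene Eif2ak2, 3 eIF3 genes, 3 genes of the cap-binding machinery, Eif5, Eif1a and Eif5b. The rises are spread over eIF3 (4 genes), Eif4e2, Eif4h, Eif2d, Eif2b5, Eif1b and Eif6. Among all genes 7.04% fell and 6.9% rose, and 25 of the 54 (46.3%) passed against 13.9% of all genes. The family is brightly expressed, and among genes above the 40th percentile of brightness the shares were 52.8% of 53 and 26.7%. That cut lies at 2.51, near the background probes, while the median of the Eif genes was 7.3 to 7.53 on the arrays. It therefore does not match the brightness of the family, and genes of like brightness were not compared. The median difference of the 54 genes was −0.09 and that of all genes 0.04. All 3 AM80 arrays lay beyond all 3 DMSO arrays for each of the 25 genes. These genes were picked by a test on the same arrays, so this adds no support to the calls. The share of all genes whose AM80 and DMSO arrays do not overlap is not given here. Non-overlap stated below or in the figures for single genes therefore only describes their arrays.

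The falls and the rises differed in how they depended on single arrays, and the calls of all genes (2172 falls and 2130 rises) shifted likewise. Of the 15 falls, 11 passed in each of the 9 fits that left out 1 array, and of the 10 rises none did (0). Without DMSO replicate 1 the fit called 11 falls and 0 rises, and without DMSO replicate 2, 13 falls and 1 rise. Among all genes these fits called 1177 falls and 563 rises, and 1323 falls and 857 rises. Without AM80 replicate 1 the fit called 14 falls and 1 rise, and without AM80 replicate 2, 14 falls and 3 rises. Among all genes these were 1471 falls and 1021 rises, and 1432 falls and 1050 rises. Under the poly-A scaling the 10 genes that rose lay below DMSO, by 0.07 (Eif3i) to 0.34 (Eif3d). That fit called 35 of the 54 lower, as it did 24198 of all 30860 genes. With the column of the array plate as a term, read from the array names and not stated by the labels, 10 falls and 1 rise (Eif1b) passed. Among all genes 1063 falls and 377 rises passed in that fit. Column 5 holds all 3 AM80 arrays with DMSO replicate 2 and AM73 replicate 2, so a test within it sets 3 arrays against 1. There limma called 0 genes of all 30860, and 15 of the 54 (27.8%) had an unadjusted p under 0.05, against 13.8% of all genes. For AM80 against DMSO the authors' deposited table gives 5 genes a q-value under 0.05, and 0 of them are Eif genes.

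**Figure D1:**
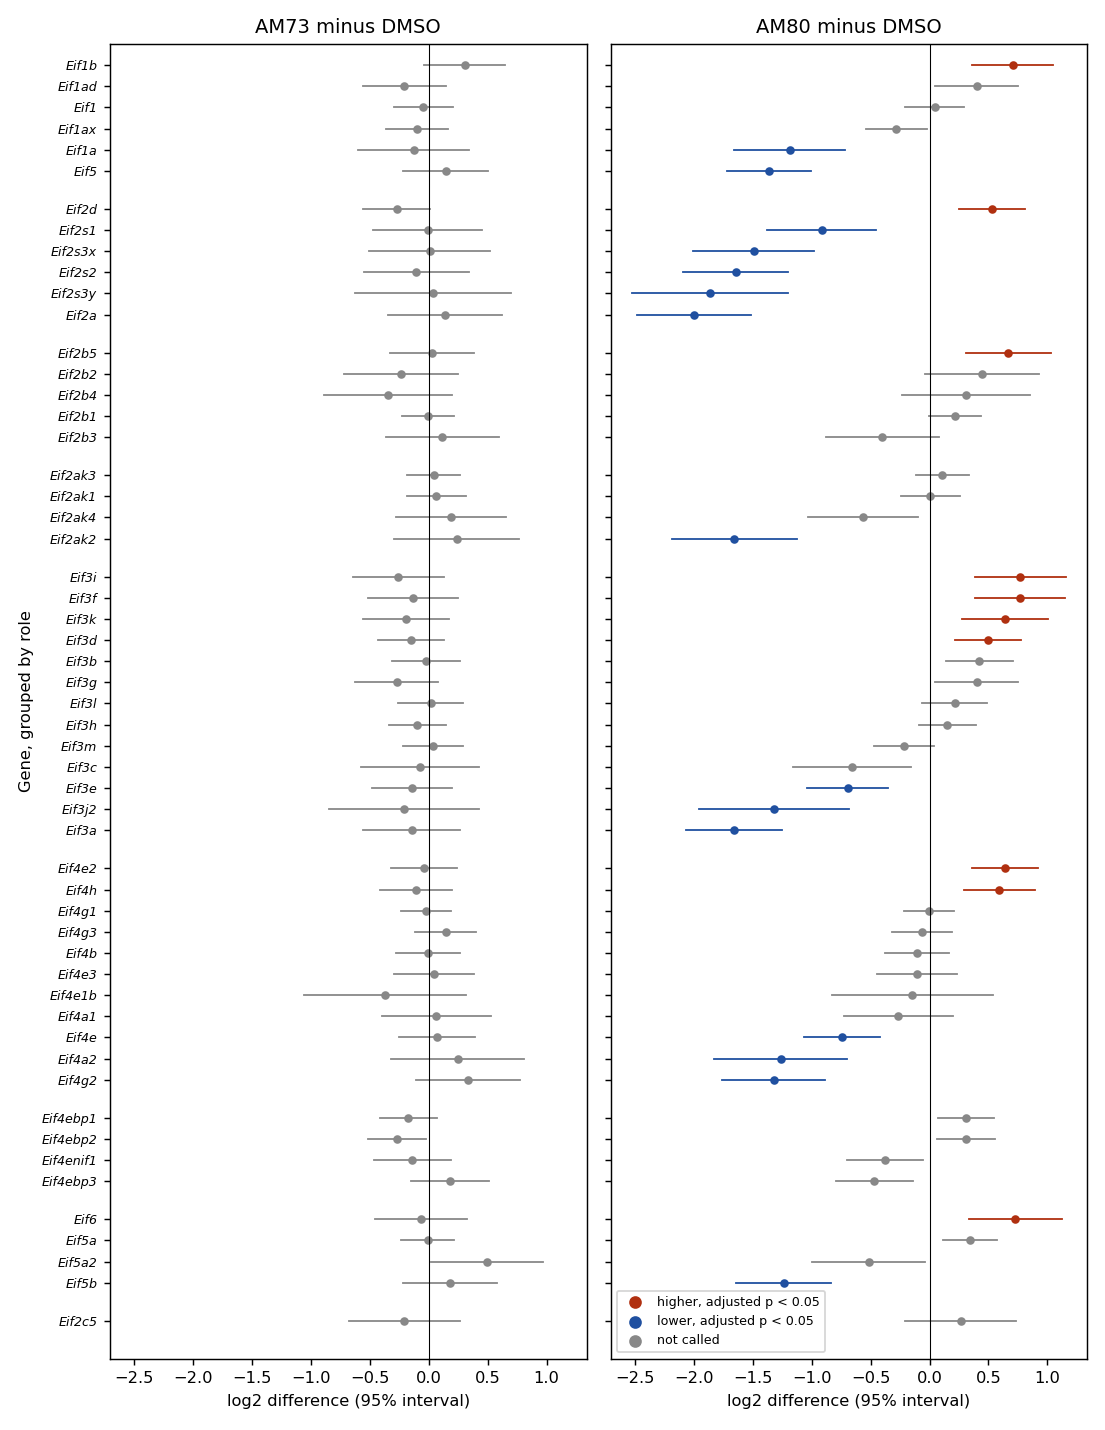
log2 difference of each of the 54 Eif genes from DMSO with AM73 (left) and AM80 (right), grouped by role, as points with the 95% interval of the limma fit over 3 arrays a group. Red points passed as higher (all below DMSO under the poly-A scaling) and blue as lower at an adjusted p under 0.05. With AM73 no gene passed and the points run from −0.37 to 0.49, and with AM80 they run from −2.0 to 0.77.

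With AM73 no Eif gene passed the test over all genes. In limma 0 of the 54 passed in either direction, where 0.104% of all genes rose and 0.0162% fell, and 2 (3.7%) had an unadjusted p under 0.05, as did 7.66% of all genes. These were Eif4ebp2, a repressor of cap binding (−0.27, 95% interval −0.52 to −0.03, adjusted p = 0.622), and Eif5a2, a paralogue of Eif5a (0.49, 0.02 to 0.97, adjusted p = 0.648). The AM73 arrays lay wholly above the DMSO arrays for 2 of the 54 genes (Eif4ebp3 and Eif5a2) and wholly below for 4 (Eif2d, Eif3g, Eif4ebp2 and Eif1ad). Among all genes these shares were 5.71% and 6.87%. The median difference of the 54 genes was −0.02, as it was for all genes. The authors' deposited table also gives 0 of the 54 a q-value under 0.05 for this comparison.

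The genes that bring the initiator tRNA to the ribosome fell with AM80, 5 of the 6 in this role. Eif2a, which encodes a single-chain factor that can deliver tRNA without eIF2 (mm10 chr3:58525821-58557501, plus strand), read 7.95, 7.59 and 7.14 on the DMSO arrays, 7.49, 7.79 and 7.81 with AM73, and 5.44, 5.33 and 5.91 with AM80. The AM80 arrays lay more than 1 log2 unit below the lowest of the others, which was DMSO replicate 3. This was the largest difference of the family, −2.0 ± 0.22 (SE, 4-fold lower, limma adjusted p = 0.00191).
Eif2s2, the beta subunit of eIF2 (chr2:154871410-154892935, minus strand), read 6.28, 6.1 and 5.73 with DMSO, 5.89, 5.81 and 6.09 with AM73, and 4.05, 4.34 and 4.78 with AM80. Its groups did not overlap between AM80 and either of the others, and it fell by 1.65 ± 0.20 (SE, limma adjusted p = 0.00217). Eif2s1, the alpha subunit that stress kinases phosphorylate, read 7.92, 7.79 and 7.86 with DMSO, 7.89, 7.79 and 7.86 with AM73, and 6.4, 7.04 and 7.38 with AM80.
Its DMSO and AM73 arrays were nearly level, and its AM80 arrays spread over about 1 log2 unit. Eif2s1 fell by 0.92 ± 0.21 (SE, limma adjusted p = 0.0171), and the call was lost without DMSO replicate 1 or 2 (up to 0.0714).

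The gamma subunit of eIF2 is encoded on both sex chromosomes in mice, and both copies fell. The Y-linked Eif2s3y (chrY:1010543-1028594, plus strand) read 7.25, 6.71 and 6.89 with DMSO, 6.89, 6.78 and 7.29 with AM73, and 4.54, 4.9 and 5.82 with AM80. Its AM80 arrays differed among themselves more than those of most members, with replicate 3 the nearest to DMSO. It fell by 1.86 ± 0.30 (SE, limma adjusted p = 0.00448).
Eif2s3x read 5.26, 4.77 and 4.88 with DMSO, 5.05, 4.56 and 5.32 with AM73, and 3.09, 3.59 and 3.75 with AM80. It fell by 1.49 ± 0.23 (SE, limma adjusted p = 0.00408). The copies are near-identical in sequence, and the array annotation places the Eif2s3x cluster at chrX:33489776-33507010, outside the RefSeq gene (chrX:94188709-94212651), so the 2 signals may not be separate.
Eif2d, which encodes a tRNA-delivering factor that also acts in ribosome recycling, was the exception in this role. It read 5.46, 5.7 and 5.71 with DMSO, 5.44, 5.25 and 5.36 with AM73, and 6.34, 6.14 and 5.99 with AM80. The AM80 arrays were the 3 highest of the 9, and Eif2d rose by 0.53 ± 0.13 (SE, limma adjusted p = 0.0209).

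Of the exchange factor eIF2B, which reloads eIF2 with GTP, 1 of 5 subunit genes rose and none fell (0), and the poly-A scaling turns that rise. Eif2b5, its catalytic subunit, read 6.17, 6.62 and 6.71 with DMSO, 6.66, 6.54 and 6.38 with AM73, and 7.3, 6.98 and 7.23 with AM80. All AM80 arrays lay above the others, with a difference of 0.67 ± 0.16 (SE, limma adjusted p = 0.022). The regulatory subunits Eif2b1, Eif2b2 and Eif2b4 had differences of 0.21, 0.45 and 0.31, and Eif2b3 one of −0.40. None of these 4 passed (adjusted p from 0.219 to 0.521).

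Among the 4 kinases of eIF2, the kinase activated by double-stranded RNA, PKR, was the one whose gene fell. Eif2ak2 (chr17:78852550-78882573, minus strand) read 7.16, 6.54 and 6.43 with DMSO, 6.89, 6.97 and 6.98 with AM73, and 4.58, 5.12 and 5.46 with AM80. The lowest DMSO array lay nearly 1 log2 unit above the highest AM80 array, and the fall was 1.66 ± 0.24 (SE, 3.15-fold, limma adjusted p = 0.00318).
Eif2ak4, the amino acid sensor GCN2, read 4.67, 4.76 and 4.43 with DMSO, 4.75, 4.95 and 4.72 with AM73, and 3.52, 4.37 and 4.27 with AM80. The groups did not overlap and AM80 replicate 1 was the lowest array, but the difference of −0.57 ± 0.21 did not pass (SE, limma adjusted p = 0.113). The kinase of the unfolded protein response, PERK, is encoded by Eif2ak3, which read 5.1, 5.13 and 5.14 with DMSO, 5.21, 5.14 and 5.14 with AM73, and 5.1, 5.25 and 5.35 with AM80.
These groups overlapped, and the 95% interval of the Eif2ak3 difference was −0.11 to 0.33. Eif2ak1, the haem-sensing kinase, had a difference of 0.01 (95% interval −0.24 to 0.26). Of 6 genes that act on eIF2 phosphorylation or answer to it, 1 rose and 2 fell with AM80. Among all genes 6.9% rose and 7.04% fell, and the list was not tested. Gcn1, which GCN2 needs for its activation, rose by 0.74 ± 0.13, and Impact, an inhibitor of GCN2, fell by 1.92 ± 0.28 (SE, limma adjusted p = 0.00759 and 0.00335). Dnajc3, an inhibitor of PKR and PERK, fell by 0.73 ± 0.19 (adjusted p = 0.0275). Atf4, whose translation rises when eIF2 is phosphorylated, had an RNA difference of 0.02 (adjusted p = 0.95).

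**Figure D2:**
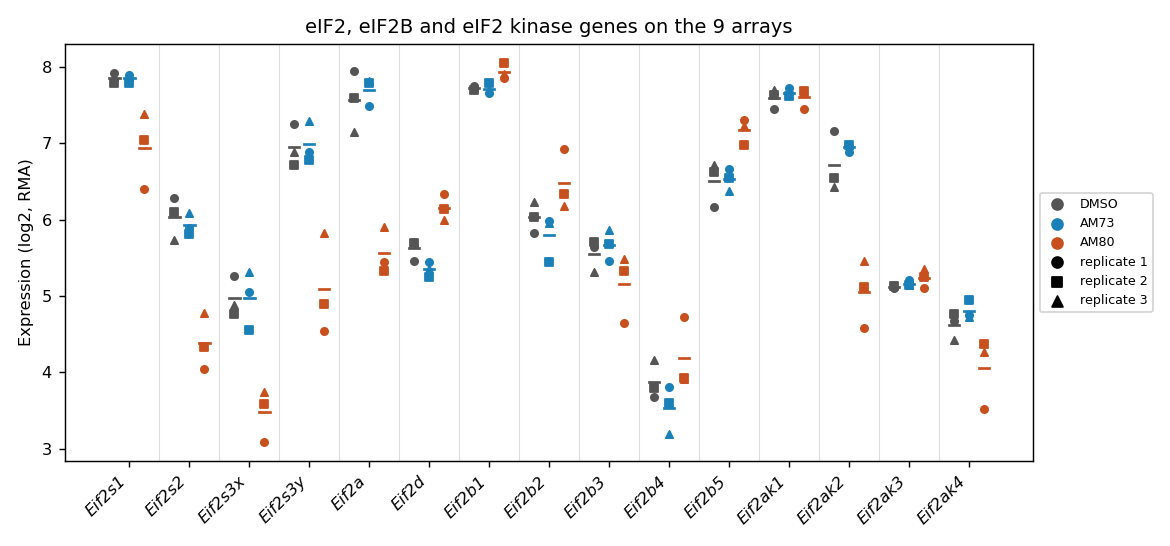
log2 expression of the eIF2, eIF2B and eIF2 kinase genes on each of the 9 arrays. Points are arrays (shape gives the replicate, colour the group) and bars are group means of 3 arrays. The AM80 points of Eif2a, Eif2s1, Eif2s2, Eif2s3x, Eif2s3y, Eif2ak2 and Eif2ak4 lie below all others, and those of Eif2b1, Eif2b5 and Eif2d above, which the poly-A scaling turns.

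The 13 genes of eIF3, subunits of 1 complex, split with AM80, as 4 rose on the deposited scale (0 under the poly-A scaling), 3 fell and 6 did not pass. Eif3a, the large scaffold subunit (chr19:60761116-60790693, minus strand), read 10.23, 9.76 and 9.45 with DMSO, 9.66, 9.63 and 9.71 with AM73, and 8.06, 8.04 and 8.36 with AM80. The 3 AM80 arrays were the lowest, more than 1 log2 unit below DMSO replicate 3. Eif3a fell by 1.66 ± 0.18 (SE, 3.16-fold, limma adjusted p = 0.00191).
Eif3e, a subunit of the structural core, read 9.06, 8.84 and 9.11 with DMSO, 8.76, 8.95 and 8.87 with AM73, and 7.98, 8.39 and 8.55 with AM80. It fell by 0.70 ± 0.15 (SE, limma adjusted p = 0.0158), with no overlap between groups. The third fall was that of Eif3j2, a copy of the loosely bound j subunit (−1.32 ± 0.28, SE, adjusted p = 0.0146), whose probes the annotation gives as cross-hybridising. The Eif3j2 call was lost without DMSO replicate 1 or 2 or AM80 replicate 1 or 2 (adjusted p up to 0.0695), and that of Eif3e without DMSO replicate 1 (0.0673). Eif3c, which also belongs to the core, had a difference of −0.66 that did not pass (adjusted p = 0.0852).

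The eIF3 rises were of similar size in 4 other subunits, each of which lies below DMSO under the poly-A scaling. Eif3i, a beta-propeller subunit (chr4:129591960-129600648, minus strand), read 8.78, 8.87 and 9.23 with DMSO, 8.81, 8.65 and 8.64 with AM73, and 10.02, 9.77 and 9.4 with AM80. DMSO replicate 3 lay between the other DMSO arrays and AM80, and the rise was 0.77 ± 0.17 (SE, 1.71-fold, limma adjusted p = 0.0171).
Eif3f, of the core, read 7.13, 7.3 and 7.74 with DMSO, 7.2, 7.34 and 7.22 with AM73, and 8.33, 8.25 and 7.89 with AM80. Here the highest DMSO array came within 0.2 of the lowest AM80 array, and the rise was 0.77 ± 0.17 (SE, limma adjusted p = 0.0169). Eif3k rose by 0.64 ± 0.16 and Eif3d, a subunit that can itself bind the cap, by 0.50 ± 0.13 (SE, adjusted p = 0.029 and 0.0283). DMSO replicate 3 was the highest DMSO array for all 4 of these genes.
Eif3b and Eif3g missed the threshold with differences of 0.42 and 0.40 (adjusted p = 0.0568 and 0.141). Eif3h, Eif3l and Eif3m had differences of 0.15, 0.21 and −0.22 (adjusted p from 0.28 to 0.473).

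**Figure D3:**
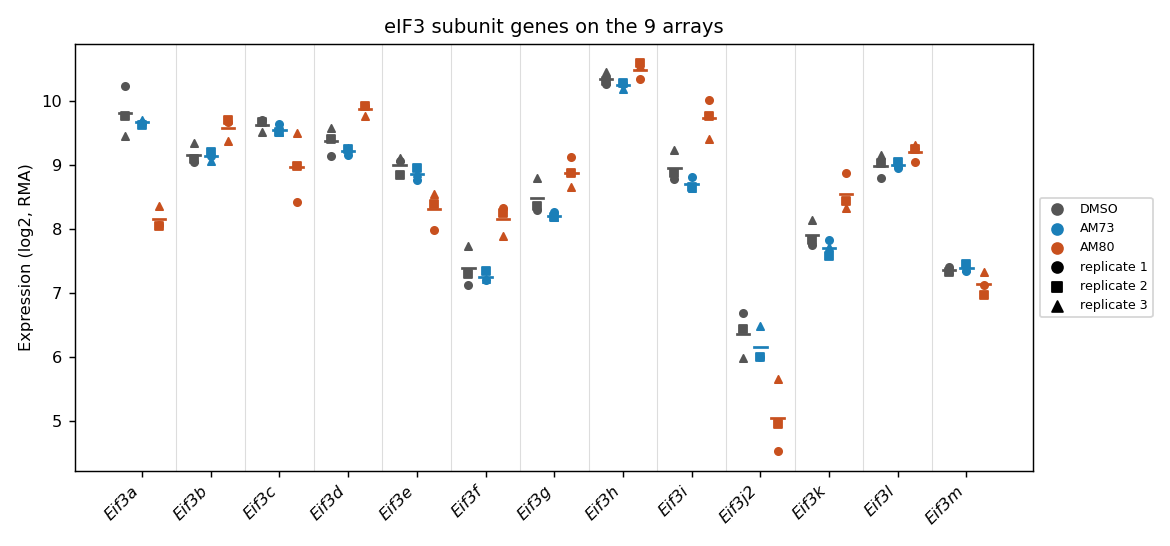
log2 expression of the 13 eIF3 genes on each of the 9 arrays. Points are arrays (shape gives the replicate, colour the group) and bars are group means of 3 arrays. AM80 points lie below all others for Eif3a, Eif3c, Eif3e and Eif3j2. They lie above all others for Eif3b, Eif3d, Eif3f, Eif3i and Eif3k (not under the poly-A scaling), where DMSO replicate 3 (grey triangles) is nearest to AM80. Eif3b and Eif3c did not pass.

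The cap-binding and helicase genes, 11 in all, gave 3 falls and 2 rises with AM80, and the rises turn under the poly-A scaling. Eif4g2 encodes DAP5, an eIF4G relative without an eIF4E binding site (chr7:111067985-111083030, minus strand). It read 10.41, 10.13 and 9.78 with DMSO, 10.45, 10.38 and 10.49 with AM73, and 8.44, 8.77 and 9.14 with AM80. AM80 lay below every other array, and the fall was 1.32 ± 0.20 (SE, limma adjusted p = 0.00351).
Eif4a2, a cap-complex helicase, read 9.06, 8.82 and 8.45 with DMSO, 9.12, 8.93 and 9.02 with AM73, and 7.03, 7.39 and 8.12 with AM80. It fell by 1.26 ± 0.25 (SE, limma adjusted p = 0.0109), with AM80 replicate 3 close to DMSO replicate 3, and the call was lost without DMSO replicate 1 (0.0544). The related helicase gene Eif4a1 read 6.48, 6.53 and 6.51 with DMSO, 6.6, 6.58 and 6.53 with AM73, and 5.66, 6.49 and 6.57 with AM80.
Only AM80 replicate 1 stood apart for Eif4a1, and its difference of −0.27 did not pass (95% interval −0.73 to 0.20, adjusted p = 0.514). Eif4e, the cap-binding protein itself, read 9.06, 8.64 and 8.55 with DMSO, 8.76, 8.9 and 8.8 with AM73, and 7.89, 7.99 and 8.14 with AM80. Its AM80 arrays lay below all others, a fall of 0.74 ± 0.14 (SE, 1.67-fold, limma adjusted p = 0.00958).

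The main scaffold of the cap complex, Eif4g1, was level across the 3 groups. It read 9.77, 9.71 and 9.91 with DMSO, 9.77, 9.78 and 9.77 with AM73, and 9.77, 9.8 and 9.8 with AM80. The 95% interval of its AM80 difference was −0.22 to 0.21, and under the poly-A scaling it too lay lower with AM80. Eif4e2, a cap-binding homologue that acts in repression, rose by 0.64 ± 0.13, and Eif4h, a helicase partner, by 0.59 ± 0.14 (SE, limma adjusted p = 0.0104 and 0.0186). Of the other genes in this role Eif4b, Eif4e3, Eif4g3 and Eif4e1b had differences of −0.11, −0.11, −0.06 and −0.15 (adjusted p from 0.679 to 0.85), and Eif4e1b lay near the background probes on every array.

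None of the 4 genes for repressors that bind eIF4E passed against DMSO in limma (0). Each had an unadjusted p under 0.05 with AM80, as did 68.5% of all the Eif genes and 25.1% of all genes measured. Eif4ebp1, a target of mTOR, read 8.69, 8.88 and 8.94 with DMSO, 8.69, 8.72 and 8.58 with AM73, and 9.23, 9.14 and 9.07 with AM80. The groups did not overlap, and the difference was 0.31 ± 0.11 (SE, limma adjusted p = 0.0935). Eif4ebp2, Eif4ebp3 and the eIF4E transporter gene Eif4enif1 had differences of 0.31, −0.47 and −0.38 (adjusted p from 0.0626 to 0.131). Of 19 genes that act in mTOR and MAPK control of initiation, 3 rose with AM80, 4 fell and 12 did not pass. Among all genes 6.9% rose and 7.04% fell, and the list was not tested. The rises were those of Ddit4 and Tsc2, which inhibit mTOR complex 1, and Rptor, its scaffold (1.18, 0.68 and 0.35, adjusted p = 0.0132, 0.0127 and 0.0484). Ddit4 was also higher with AM73 without passing (0.89, limma adjusted p = 0.388), and AM80 and AM73 differed by 0.29 (adjusted p = 0.488). The falls were those of Rheb, the activator of mTOR, its substrate kinase Rps6kb1, Sesn3 and the mTOR inhibitor Deptor (−0.78, −0.74, −0.88 and −1.14, adjusted p = 0.00696, 0.0227, 0.0223 and 0.0114). Mtor itself and Larp1, which binds TOP mRNAs, had differences of 0.24 and 0.03 (adjusted p = 0.294 and 0.928).

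Of the 6 genes for start codon selection, 2 fell and 1 rose, which the poly-A scaling turns. Eif5, which makes eIF2 hydrolyse its GTP at the start codon (chr12:111538101-111556059, plus strand), read 9.31, 9.08 and 8.87 with DMSO, 9.43, 9.22 and 9.04 with AM73, and 7.67, 7.54 and 7.96 with AM80. Every AM80 array lay at least 0.9 below every other array, and the fall was 1.36 ± 0.16 (SE, 2.57-fold, limma adjusted p = 0.00217).
The scanning factor eIF1A is encoded by paralogues of which Eif1a fell by 1.19 ± 0.21 (SE, adjusted p = 0.00703), while the X-linked Eif1ax had a difference of −0.28 that did not pass (adjusted p = 0.157). Eif1b, a paralogue of the start codon gatekeeper Eif1, read 6.84, 6.92 and 7.22 with DMSO, 7.57, 7.06 and 7.27 with AM73, and 7.75, 7.77 and 7.58 with AM80. It rose by 0.71 ± 0.15 (SE, adjusted p = 0.015), and its AM73 mean (7.30) lay between those of the 2 other groups.
The cluster named Eif1 read 10.95, 11.22 and 11.12 with DMSO, 10.93, 11.17 and 11.05 with AM73, and 11.16, 11.16 and 11.1 with AM80, with overlapping groups. Its annotated position on chr9:118837613-118837955 is not that of the RefSeq gene on chromosome 11, and its probes are given as cross-hybridising, so this value may not be that of Eif1. Eif1ad had a difference of 0.40 (adjusted p = 0.141).

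At subunit joining and later steps 1 of 4 genes fell and 1 rose, the latter turned by the poly-A scaling. Eif5b, the GTPase that joins the ribosomal subunits, read 6.73, 6.17 and 6.17 with DMSO, 6.3, 6.7 and 6.61 with AM73, and 4.98, 5.05 and 5.32 with AM80. Its AM80 arrays lay well below the others, a fall of 1.24 ± 0.18 (SE, limma adjusted p = 0.00328). Eif6, which keeps the large subunit from joining too early, read 7.14, 7.41 and 7.7 with DMSO, 7.38, 7.34 and 7.34 with AM73, and 8.49, 8 and 7.95 with AM80.
DMSO replicate 3 was again the DMSO array nearest to AM80, and Eif6 rose by 0.73 ± 0.17 (SE, limma adjusted p = 0.0222). Eif5a, the hypusine-bearing elongation factor, read 7.91, 8.08 and 8.02 with DMSO, 8.03, 7.99 and 7.96 with AM73, and 8.43, 8.38 and 8.23 with AM80. Its groups did not overlap, but the difference of 0.34 ± 0.10 missed the threshold (SE, limma adjusted p = 0.0513), and Eif5a2 had a difference of −0.52 (adjusted p = 0.161). Eif2c5, which carries an older symbol stem of the Argonaute genes rather than of an initiation factor, lay near background (2.31 to 3.3) and did not pass (adjusted p = 0.524).

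**Figure D4:**
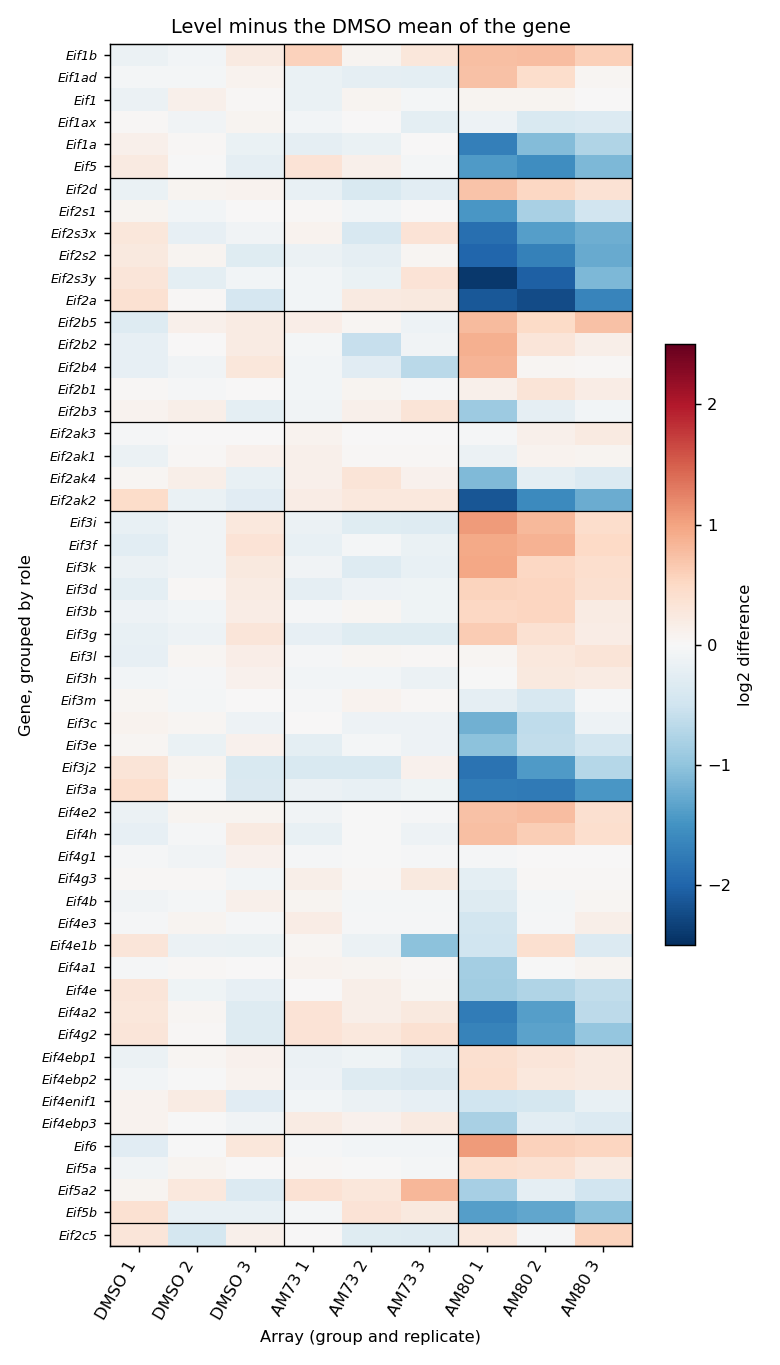
Level of each of the 54 Eif genes on each of the 9 arrays minus the gene's DMSO mean (log2, colour scale from −2.5 to 2.5), with genes grouped by role and ordered by the AM80 difference. The AM80 columns hold the strongest blue (lower) and red (higher, turned by the poly-A scaling where called), and the DMSO replicate 3 column shows weaker colours of mostly the same sign.

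Genes of other translation steps also changed with AM80, and their lists were counted without a test of the lists. Among all genes 7.04% fell and 6.9% rose. Of 15 further initiation and mRNA-circularising genes 6 fell and none rose (0). They include Bzw1, which competes with eIF5 for eIF2 (−2.05 ± 0.27), Abce1, which splits ribosomes (−2.0 ± 0.23), and the helicases Dhx36 (−1.96 ± 0.24) and Ddx3x (−1.70 ± 0.24), with limma adjusted p from 0.00215 to 0.0032 (SE). Gigyf2, a partner of Eif4e2, fell by 0.84 and Paip2, an inhibitor of the poly(A)-binding protein, by 0.48 (adjusted p = 0.0136 and 0.029). Of 5 termination and recycling genes the release factors Etf1 and Gspt1 fell by 1.06 and 0.85 (adjusted p = 0.00857 and 0.00719). Among 8 measured elongation genes 3 rose, Eef1d, Eef2 and Eefsec, by 0.48, 0.42 and 0.44 (adjusted p = 0.0427, 0.0436 and 0.0291), and none fell (0). The mitochondrial initiation factor Mtif3 rose by 0.84 ± 0.16 (SE, adjusted p = 0.00861), while Mtif2 had a difference of −0.60 (adjusted p = 0.219), and neither of the 2 hypusine enzyme genes passed. With AM73 none of the genes of these lists passed in limma. Under the poly-A scaling Eef1d, Eef2, Eefsec, Gcn1, Tsc2 and Rptor lay below DMSO, while Ddit4 (0.34) and Mtif3 (0.003) did not.

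At the same dose and time AM80 and AM73 differed in more Eif genes than AM80 and DMSO. With AM80 18 of the 54 were lower than with AM73 and 15 higher at a limma adjusted p under 0.05. Among all genes 9.22% were lower and 9.92% higher. Under the poly-A scaling 40 of the 54 were lower and 0 higher, and of all 30860 genes 28175 were lower and 7 higher. The comparison shares the AM80 arrays with the one above. The largest differences were in Eif2a (−2.14 ± 0.22), Eif2s3y (−1.90 ± 0.30), Eif2ak2 (−1.89 ± 0.24) and Eif4g2 (−1.66 ± 0.20), and upward in Eif3i (1.03 ± 0.17) and Eif3f (0.90 ± 0.17), with adjusted p from 0.000693 to 0.00521 (SE). Next downward came Eif2s2 (−1.54), Eif3a (−1.51), Eif4a2 (−1.51) and Eif5 (−1.51), with adjusted p from 0.000723 to 0.00289. Genes called here that were not called against DMSO were Eif5a2 (−1.01), Eif2ak4 (−0.75), Eif4ebp3 (−0.65), Eif3g (0.67), Eif1ad (0.61), Eif4ebp2 (0.58), Eif4ebp1 (0.48), Eif3b (0.45) and Eif5a (0.35), with adjusted p from 0.0052 to 0.036. Eif1b, higher with AM80 than with DMSO, differed from AM73 by 0.40 (95% interval 0.06 to 0.74, adjusted p = 0.106).
Of these calls, 15 of the 18 falls and 10 of the 15 rises passed in each fit without 1 array. The 6 brightest background probe sets averaged 5.69 to 6.12 with AM80 and 4.52 to 5.48 with AM73, without overlap, and with them as a covariate limma called 0 genes of all 30860. In that fit 21 of the 54 (38.9%) had an unadjusted p under 0.05, against 14.8% of all genes. By the q-values of the authors' deposited table, 12 of the 54 were lower and 9 higher with AM80 at under 0.05, where 11.3% of all genes passed in either direction.

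DMSO replicate 3 departed from the other DMSO arrays in the direction in which AM80 differed from AM73. The departure of DMSO replicate 3 from the mean of DMSO replicates 1 and 2 was set against the AM80 minus AM73 difference, which uses no DMSO array. Across the 54 genes, which share their arrays and are not independent, Pearson's r was 0.855 and Spearman's rho 0.865. Across all 30860 genes these were 0.527 and 0.409. All genes include many near background, and genes as bright as the Eif genes were not compared. The values therefore do not show that the relation is particular to the Eif genes. For 9 of the 10 genes that rose with AM80 against DMSO, DMSO replicate 3 was the highest DMSO array (Eif4e2 was tied), and for 10 of the 15 that fell it was the lowest (Eif5b was tied). The same counts were not made over all genes, where this array also lay towards AM80 on the first principal component. Eif2a departed by −0.63 on that array and Eif3f by 0.53. Without DMSO replicate 3 the AM80 difference was −2.21 for Eif2a, −1.84 for Eif3a, 0.94 for Eif3f and 0.91 for Eif3i, and 28 of the 54 passed. The 6 brightest background probe sets averaged 5.95 on DMSO replicate 3, against 5.57 and 5.21 on DMSO replicates 1 and 2 and 5.69 to 6.12 with AM80. Their part in this departure was not tested.

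**Figure D5:**
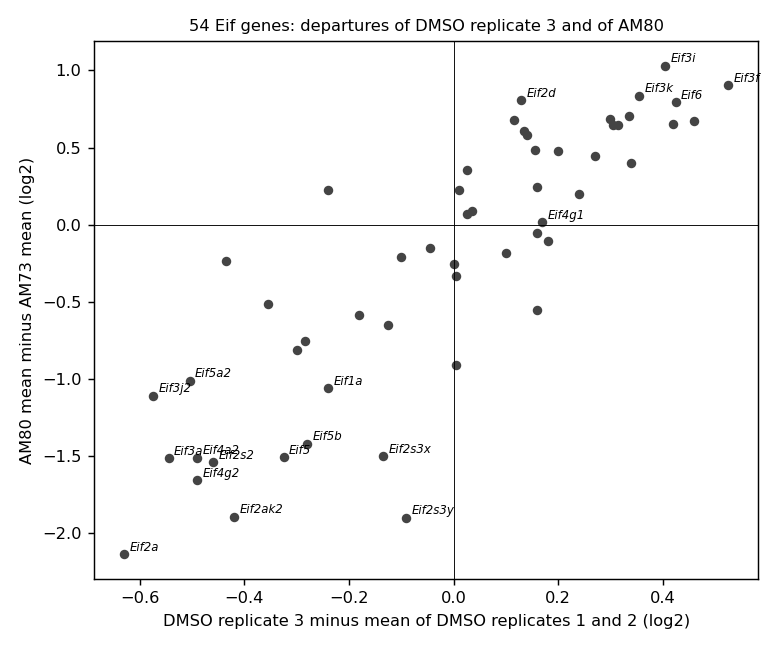
Departure of DMSO replicate 3 from the mean of DMSO replicates 1 and 2 (x axis, log2) against the difference of the AM80 and AM73 means (y axis, log2), 1 point for each of the 54 Eif genes, with selected genes named. The points rise from lower left (Eif2a, Eif3a and Eif2ak2) to upper right (Eif3f, Eif6 and Eif3i).

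The Eif genes that fell with AM80 span more of the genome than those that rose. From first to last base in RefSeq the 15 that fell had a median of 24939 bp (2419 to 57570), the 10 that rose 10525 bp (2722 to 34488) and the 29 others 19178 bp. Among all genes the medians were 44636 bp for those that fell, 10640 bp for those that rose and 14407 bp for the rest. Spearman's rho between span and the AM80 difference was −0.302 across the 54 genes and −0.222 across 24051 genes with a span. Some genes went against the order, among them the short Eif4a2 (6665 bp) and Eif5 (8653 bp), which fell, and the longer Eif2d (34488 bp) and Eif4e2 (26578 bp), which rose. The part of gene length in these differences was not tested.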

How the data were processed

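Log2 levels of 9 arrays were used as the authors deposited them: per the file headers they come from RMA with quantile normalization, and per the submitters' processing notes from Affymetrix Expression Console 1.41 (NetAffx build 35, mm10, per the file headers). The deposited q-value columns are the authors' and how they were made is not given in the sources used here. Of 33793 main features 32202 had a symbol. Symbols were updated by Entrez identifier (25099 matched, 1913 renamed), and the cluster with the highest mean was kept for 772 symbols with several, which left 30860 genes. The Eif genes were taken by the symbol in the file.

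Differences were fitted with limma 3.58.1 (lmFit, eBayes) in R 4.3.3 over all 9 arrays (6 residual degrees of freedom, two-sided). P-values were adjusted by Benjamini-Hochberg over all genes, with a threshold of 0.05. The fit was tested on simulated data. Tables and figures were made in Python 3.11.15.

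The Eif genes, their roles and the other gene lists were chosen with earlier results of these data known. Values on every array are given for the 8 largest changes per comparison among genes that passed (none with AM73), for 11 genes named in each case (Eif1, Eif2s1, Eif2ak3, Eif2ak4, Eif4a1, Eif4e, Eif4ebp1, Eif4g1, Eif5, Eif5a and Eif6), and for the largest rise and fall of most roles. Arrays limit precision by their number, and no depth applies. Alternatives were a filter on dim genes (40th percentile), all clusters, other scalings, the 2 groups compared alone, a replicate block, the plate column, a background covariate, other moderation, array weights, a fold of 1.5, the authors' q-value and leaving out each array.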

Additional observations from a re-analysis of the deposited data

How the results depend on the processing

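Of the 54 Eif genes, 25 passed for AM80 against DMSO (10 higher, 15 lower). The count was 13 with the 2 groups alone (2 higher, 11 lower), 11 when a plate column term was added (1 and 10), 15 when bright background probes were a covariate (2 and 13), 0 in plate column 5 (1 DMSO array, and 0 of all genes), and by the authors' deposited q-value 0. Leaving out 1 array gave 11 to 29. For AM80 against AM73, 33 passed, 0 within column 5 and 0 with the background covariate (0 of all genes in each, and 21 of the 54 at an unadjusted p under 0.05 in each), 21 by the authors' deposited q-value, and 25 to 35 without 1 array. The cause of these moves was not tested. The other alternatives kept both counts within 1.5 times, and AM73 against DMSO stayed at 0 calls in limma under each alternative run (2 at an unadjusted p under 0.05 in the reported fit).

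Replicate numbers are shared between groups, and the labels do not say whether same-numbered arrays belong together. The deviations of such arrays from their group means correlated at −0.298 to 0.0682. With means of 3 arrays a group, this cannot show whether they share a batch or culture. With a replicate block 19 passed for AM80 against DMSO (4 higher, 15 lower) and 31 for AM80 against AM73.

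Scaling to the poly-A controls lowers the AM80 differences by 0.84 against DMSO and 1.13 against AM73. The largest positive differences of the 54 genes were 0.77 and 1.03, so every positive difference turned negative, called or not. Values follow for the called rises and for 3 genes whose small positive differences had not passed (Eif1 and Eif2ak3 in both comparisons, Eif4g1 against AM73). For AM80 against DMSO the differences were then −0.797 for Eif1, −0.133 for Eif1b, −0.73 for Eif2ak3, −0.17 for Eif2b5, −0.307 for Eif2d, −0.343 for Eif3d, −0.0733 for Eif3f, −0.07 for Eif3i, −0.20 for Eif3k, −0.20 for Eif4e2, −0.247 for Eif4h and −0.11 for Eif6. For AM80 against AM73 they were −1.04 for Eif1, −0.52 for Eif1ad, −1.06 for Eif2ak3, −0.483 for Eif2b5, −0.32 for Eif2d, −0.68 for Eif3b, −0.48 for Eif3d, −0.223 for Eif3f, −0.453 for Eif3g, −0.0967 for Eif3i, −0.29 for Eif3k, −0.447 for Eif4e2, −0.643 for Eif4ebp1, −0.547 for Eif4ebp2, −1.11 for Eif4g1, −0.423 for Eif4h, −0.773 for Eif5a and −0.333 for Eif6. The median of all genes was then −0.80 and −1.05. Signal near background limits Eif4e1b and Eif2c5.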
